A study of Mus musculus with 36 samples.

Results

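Imprinted genes are expressed mainly or only from the copy inherited from 1 parent. The genes described here are 33 imprinted mouse genes that lie outside the Igf2-H19 and Dlk1-Meg3 loci, out of 55335 genes in the count table. They were chosen by name, from what is known of imprinting in the mouse but with earlier results of these data known, and fall into 16 loci. In the mouse 20 of them are known as paternally expressed, 10 as maternally expressed, and 3 (Ddc, Gnas and H13) as imprinted in some isoforms or tissues only. Of the 33, 29 passed the filter on low counts and were tested, namely all 20 paternal genes, 6 of the 10 maternal genes and the 3 others.

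The libraries hold polyadenylated RNA of mouse embryonic stem cells (mESC), pluripotent cells taken from the early embryo. Cells under BPK25, IAA (auxin) or DMSO were sampled at days 0, 2, 4 and 6, with 3 libraries in each of 12 groups and 36 in all. The groups were BPK25 at each day, IAA at each day, and DMSO, the usual solvent for compounds, at each day; all shared the cell type, a serum replacement medium with LIF and plates that typically carried irradiated fibroblast feeders. BPK25 is known here by its code name alone, and auxin is a plant hormone used to destroy proteins that carry a matching degron tag. The labels name neither a tagged protein nor a genotype, clone, dose or starting point for the days. Whether the 3 libraries of a group came from separate cultures is not stated either. Each p-value therefore reflects the spread between these libraries alone, which may be technical.

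At an imprinted locus, a differentially methylated control region marks the parental copies, and the unmethylated copy often starts a long noncoding RNA or keeps an insulator open that decides which neighbours are transcribed. CTCF binds several of these regions. The zinc finger protein ZFP57, with TRIM28 and SETDB1, keeps the methylation through early development by binding a methylated TGCCGC core. Many paternally expressed genes promote fetal growth and many maternally expressed ones restrain it. The counts used here add both parental copies, so they give a gene's level and not its allelic state.

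To show where these genes start, 4 promoter windows (RefSeq, build GRCm38.p6, 250 bases before to 50 bases after a start) are printed for members whose results are described at length. In the Peg3 window (chr7:6730370-6730669, minus strand) capitals mark the 163 bases between the starts of Peg3 and Usp29, which run in opposite directions; in the other 3, capitals mark TGCCGC read on the opposite strand (GCGGCA). The Mest window is chr6:30737800-30738099, the Plagl1 window chr10:13090582-13090881 and the Nnat window chr2:157559828-157560127, all on the plus strand. Another Mest window, chr6:30733256-30733555, is not printed and holds no TGCCGC on either strand.
Peg3: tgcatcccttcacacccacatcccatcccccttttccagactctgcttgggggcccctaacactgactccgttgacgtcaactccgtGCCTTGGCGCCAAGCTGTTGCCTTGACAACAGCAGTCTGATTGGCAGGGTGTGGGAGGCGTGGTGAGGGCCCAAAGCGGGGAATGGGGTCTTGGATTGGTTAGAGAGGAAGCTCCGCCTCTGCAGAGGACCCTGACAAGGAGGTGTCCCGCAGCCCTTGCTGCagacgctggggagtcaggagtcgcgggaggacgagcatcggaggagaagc
Mest: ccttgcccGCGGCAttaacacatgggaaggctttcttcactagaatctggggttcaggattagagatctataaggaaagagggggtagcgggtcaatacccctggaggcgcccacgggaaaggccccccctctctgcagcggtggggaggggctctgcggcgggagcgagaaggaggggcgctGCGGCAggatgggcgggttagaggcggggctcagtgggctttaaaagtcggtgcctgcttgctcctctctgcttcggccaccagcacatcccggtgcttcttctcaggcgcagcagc
Plagl1: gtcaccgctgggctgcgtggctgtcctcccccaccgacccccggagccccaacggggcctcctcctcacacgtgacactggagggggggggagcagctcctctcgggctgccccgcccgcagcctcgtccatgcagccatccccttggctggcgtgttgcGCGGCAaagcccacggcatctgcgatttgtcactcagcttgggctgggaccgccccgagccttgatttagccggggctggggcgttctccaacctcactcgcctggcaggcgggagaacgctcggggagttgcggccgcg
Nnat: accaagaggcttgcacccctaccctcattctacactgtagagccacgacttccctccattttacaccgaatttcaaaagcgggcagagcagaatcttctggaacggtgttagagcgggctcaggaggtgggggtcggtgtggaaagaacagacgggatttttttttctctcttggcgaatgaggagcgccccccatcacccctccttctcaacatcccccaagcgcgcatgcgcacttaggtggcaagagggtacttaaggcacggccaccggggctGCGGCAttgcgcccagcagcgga
The core TGCCGC, searched on both strands, was in 11 of 39 windows of 27 members (28.2%), against 11.6% of all 32851 mouse windows of the same length. The 11 are not all distinct, since Snurf and Snrpn share 1 identical window and the 2 Mest windows with a match nearly coincide. The motif holds a CpG, and the median number of CpG per window was 15 for members and 7 for all windows. By allele it was in 8 of 22 paternal windows, 3 of 10 maternal windows and 0 of 7 windows of the other 3 genes. The windows of Peg3 and Usp29 share 263 bases and hold none, so a match here is a description of letters only. Mest and Nap1l5 had windows with 2 matches, and 1 of the windows of Zdbf2 had 3. No window was taken for Peg10, Sgce, Cdkn1c, Kcnq1, Peg13 or Impact.

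Libraries held 6621288 to 16497799 counts over genes, and no pair of replicates was identical. Levels are CPM, each count divided by the TMM-scaled size of its library, and fold changes are log2 with the standard error. A member was called higher or lower where edgeR's quasi-likelihood test, with Benjamini-Hochberg adjustment over the 17394 genes tested, gave an adjusted p under 0.05. The 8 stem cell markers summed to 3964 to 4015 CPM in IAA and 2817 to 2945 CPM in DMSO at day 0. At day 6 they summed to 804 to 839 CPM in BPK25, 654 to 684 CPM in IAA and 767 to 779 CPM in DMSO. Sums for 16 fibroblast markers were 376 to 380 CPM in IAA and 210 to 220 CPM in DMSO at day 6, and 68.8 to 79.0 CPM in DMSO at day 0. At IAA day 2, where Lum, Dcn and Fap had 0 counts, the fibroblast sum was 115 to 118 CPM in IAA and 73.2 to 76.1 CPM in DMSO. Lum also had 0 counts in IAA at day 0 and in BPK25 at day 4, and Dcn in BPK25 at day 4. Mitochondrial genes took 1.96% of counts in BPK25, 2.49% in IAA and 1.40% in DMSO at day 4. In such bulk RNA fewer cells of a type and less RNA per cell cannot be told apart.

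In DMSO alone most calls came after day 2, for the members as for all genes. In DMSO, 0 members were higher by edgeR (0 by DESeq2, 2 at an unadjusted p under 0.05) and 2 lower at day 2 than at day 0 (1.59% and 3.85% of all genes tested). There were 14 higher and 6 lower at day 4 (26.0% and 24.4%), and 15 higher and 4 lower at day 6 (33.2% and 29.5%). Changes of at least 2-fold were 0 at day 2 (0.115% higher and 0.0747% lower of all genes) and, at day 4, 6 higher and 1 lower (6.27% and 5.35%). Of those at day 6, 8 were at least 2-fold higher and 2 at least 2-fold lower (10.6% and 7.96% of all genes). The median log2 fold change of the 29 was 0.14 at day 6, against 0.03 for all genes. The 2 lower at day 2 were Peg3 and Zdbf2, and Zdbf2 loses its call without any 1 of the 6 libraries compared. The 8 at least 2-fold higher at day 6 were Peg3, Nnat, Plagl1, Peg10, Airn, Mest, Ndn and Magel2. All 8 are paternally expressed, as are 20 of the 29 tested members, and Ndn and Magel2 share a locus. The 2 at least 2-fold lower at day 6 were Ddc and Grb10. Magel2 loses its call without DMSO day 0 replicate 2 or DMSO day 6 replicate 1 (highest adjusted p 0.114). Over the same libraries the fibroblast marker sum moved as given above, with 11 of 15 tested fibroblast markers higher and 1 lower at day 6, and the part of such cells in these changes was not tested.

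IAA had members called in both directions on every day. It had 41.4% of the 29 tested members called at day 0 and 72.4% to 82.8% on later days. Against DMSO of the same day it had 3 members higher and 9 lower at day 0 (21.3% and 23.2% of all genes), and 18 higher and 6 lower at day 2 (27.5% and 27.9%). It had 12 higher and 9 lower at day 4 (25.9% and 25.9%) and 14 higher and 9 lower at day 6 (30.6% and 30.0%). At day 2 the 29 had a median log2 fold change of 0.50, against -0.01 for all genes, and their higher share was 62.1%. Changes of at least 2-fold were 1 higher and 2 lower at day 0 (4.52% and 2.74% of all genes), and 6 higher and 1 lower at day 2 (6.53% and 7.03%). There were 8 higher and 2 lower at day 4 (6.31% and 3.89%) and 9 higher and 4 lower at day 6 (8.54% and 7.04%). Peg10 and Kcnq1ot1 were higher on all 4 days. The effect differed between days for 28 of 29 members in a joint test (70.1% of all genes), with Peg13 the exception (edgeR adjusted p = 0.135). At day 6, 9 of 15 tested fibroblast markers were higher in IAA and 4 lower, and at day 2, 4 were higher and 7 lower. At day 2, 0 of 8 stem cell markers were higher and 7 lower, and they summed to 1581 to 1604 CPM in IAA and 2703 to 2714 CPM in DMSO. Of 7 endoderm markers 5 were higher and 2 lower at day 2, with sums of 577 to 601 CPM in IAA and 432 to 442 CPM in DMSO. At day 4, 6 stem cell markers were lower and 0 higher (857 to 858 CPM in IAA and 1220 to 1318 CPM in DMSO). Endoderm markers were then 4 higher and 1 lower (866 to 877 CPM in IAA and 530 to 546 CPM in DMSO). At day 0, 0 endoderm markers were higher and 6 lower (316 to 326 CPM in IAA and 510 to 519 CPM in DMSO). At day 6, 1 was higher and 4 lower (683 to 707 CPM in IAA and 791 to 801 CPM in DMSO). Dab2 held the most counts of the 7 endoderm markers (137635 over the 36 libraries). The part of fibroblasts, stem cells and endoderm in the members' values was not tested.

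BPK25 changed fewer members, most of them at day 4. It had 2 higher and 3 lower at day 0 (3.32% and 4.58% of all genes) and 4 higher and 5 lower at day 2 (6.40% and 7.12%). There were 12 higher and 6 lower at day 4 (26.2% and 26.8%) and 6 higher and 0 lower at day 6 (4.01% and 3.08%). The counts at days 0, 2 and 6 shift with single libraries. At day 0, 1 member was lower when replicate 1 or 2 of BPK25 or replicate 2 of DMSO was left out. At day 2, 2 were lower when replicate 3 of BPK25 was left out and 3 when replicate 3 of DMSO was. At day 6, 3 were higher when replicate 2 of BPK25 or replicate 1 of DMSO was left out. The 0 lower at day 6 was 0 by DESeq2 as well, and 2 members were lower at an unadjusted p under 0.05. Only at day 4 did any member change at least 2-fold, Kcnq1ot1 upward (6.21% of all genes) and Nnat and Peg12 downward (3.94%). The shares of all genes for such a change on the other days were 0.132% higher and 0.0345% lower at day 0, 0.264% and 0.121% at day 2, and 0.0805% and 0.0287% at day 6. At day 4, 5 of 7 endoderm markers were lower and 1 higher, and they summed to 410 to 423 CPM in BPK25 and 530 to 546 CPM in DMSO; their part in the members' values was not tested. The BPK25 effect differed between days for 19 of 29 members (47.1% of all genes).

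**Figure D1:**
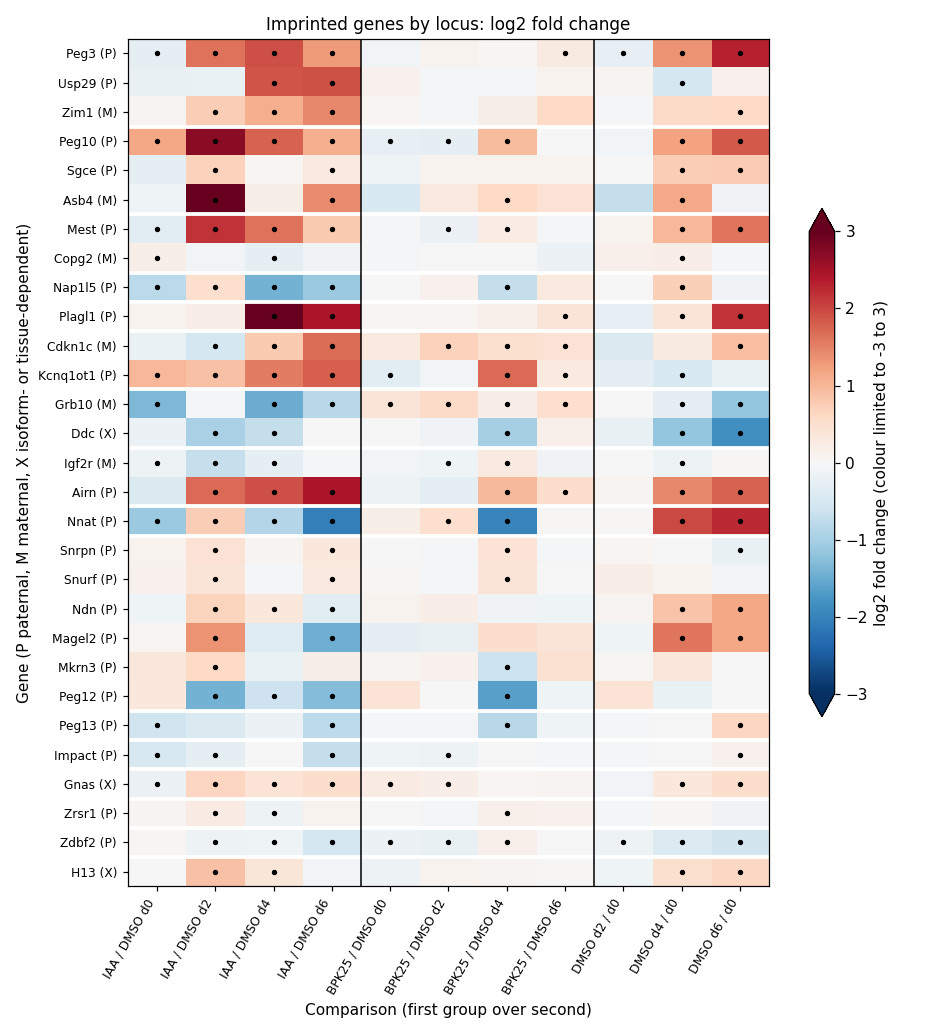
Log2 fold change of the 29 tested members (rows, grouped by locus) in IAA over DMSO, BPK25 over DMSO and DMSO at later days over day 0 (columns); black dots mark calls at an adjusted p under 0.05, and colour is limited to -3 to 3. The IAA columns from day 2 on hold the strongest reds (Asb4 and Peg10 at day 2, Plagl1 at day 4), and the BPK25 columns are pale except at day 4.

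All 3 genes of the Peg3 locus on proximal chromosome 7 rose in IAA. Peg3 (chr7:6703892-6730431), a paternally expressed zinc finger gene tied to growth and maternal behaviour, had 222, 217 and 218 CPM in IAA and 271, 258 and 272 CPM in DMSO at day 0. Every IAA library was below every DMSO library (log2 fold change -0.29 ± 0.04, edgeR adjusted p = 4.25e-07). At day 2 it had 708, 698 and 705 CPM in IAA and 234, 234 and 213 CPM in DMSO, a 3.11-fold rise (log2 fold change 1.64 ± 0.04, edgeR adjusted p = 2.86e-34). By day 4 the levels were 2731, 2488 and 2532 CPM in IAA and 672, 674 and 689 CPM in DMSO (log2 fold change 1.93 ± 0.04, edgeR adjusted p = 3.46e-38). At day 6 they were 3129.9, 3317 and 3171 CPM in IAA and 1314, 1363 and 1280.5 CPM in DMSO (log2 fold change 1.28 ± 0.04, edgeR adjusted p = 1.68e-31). The groups stayed apart on all 4 days, with IAA below DMSO at day 0 and above it from day 2. In DMSO itself the rise was 4.94-fold at day 6 against day 0 (log2 fold change 2.31 ± 0.04, edgeR adjusted p = 1.19e-40), so both conditions moved upward and IAA lay ahead.

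Usp29 (chr7:6730578-6967219), a paternally expressed gene of the ubiquitin protease family that starts beside Peg3, did not follow it at day 2. Its levels at day 2 were 6.35, 6.51 and 9.69 CPM in IAA and 7.74, 9.37 and 9.17 CPM in DMSO, and the groups overlapped (log2 fold change -0.21 ± 0.14, edgeR adjusted p = 0.22). At day 4 they were 22.2, 20.7 and 20.9 CPM in IAA and 6.06, 4.96 and 6.46 CPM in DMSO, a 3.70-fold difference (log2 fold change 1.89 ± 0.12, edgeR adjusted p = 2.63e-18). At day 6 they were 31.7, 35.5 and 35.1 CPM in IAA and 9.04, 9.21 and 8.83 CPM in DMSO (log2 fold change 1.91 ± 0.10, edgeR adjusted p = 3.33e-22). All IAA libraries lay above all DMSO libraries on those 2 days, while in DMSO the change of Usp29 at day 6 against day 0 missed the threshold (log2 fold change 0.13 ± 0.14, edgeR adjusted p = 0.446). Its exons share 2582 bases with the antisense gene Zim3, which had 331 counts over the 36 libraries against 3932 for Usp29. Zim1 (chr7:6671269-6696450), the maternally expressed zinc finger gene of the locus, had 8.18, 9.17 and 7.65 CPM in IAA and 2.90, 3.86 and 2.58 CPM in DMSO at day 6, with every IAA library higher (log2 fold change 1.43 ± 0.18, edgeR adjusted p = 1.38e-09). It was also higher at day 4, with 5.72, 6.76 and 6.79 CPM in IAA and 1.83, 3.91 and 3.38 CPM in DMSO (log2 fold change 1.10 ± 0.19, edgeR adjusted p = 4.4e-06). Its call at day 2 (log2 fold change 0.75) is lost without IAA day 2 replicate 1 or DMSO day 2 replicate 2 (highest adjusted p 0.0945). At days 4 and 6 the maternal gene was thus higher together with both paternal genes. In BPK25 the 1 call at the locus was Peg3 at day 6, with 1594, 1560.1 and 1582 CPM in BPK25 against 1314, 1363 and 1280.5 CPM in DMSO (log2 fold change 0.26 ± 0.04, edgeR adjusted p = 1e-05).

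**Figure D2:**
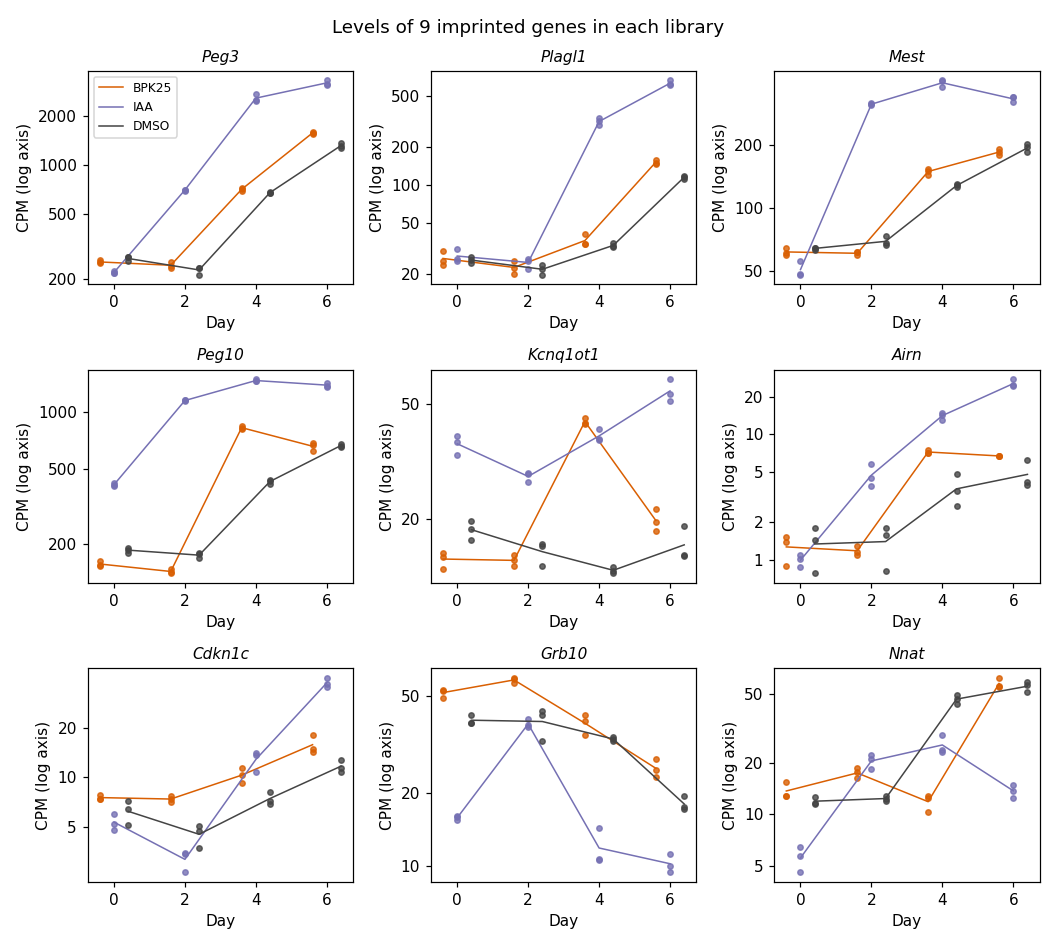
Level of 9 members in each library (points, CPM on a log axis) by day (x axis, points shifted sideways by treatment) for BPK25, IAA and DMSO; lines join group means. Peg3, Plagl1, Mest, Peg10 and Airn lie highest in IAA at days 4 and 6, Kcnq1ot1 peaks at day 4 in BPK25, and Nnat lies below DMSO in BPK25 at day 4 and in IAA at days 4 and 6.

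At the Peg10-Sgce locus on chromosome 6 the strongest response was at day 2 of IAA. Peg10 (chr6:4747306-4760517), a paternally expressed gene derived from a retrotransposon and needed in the placenta, had 1141, 1156 and 1152 CPM in IAA and 176, 169 and 179 CPM in DMSO at day 2, a 6.58-fold difference (log2 fold change 2.72 ± 0.04, edgeR adjusted p = 4.57e-44). It already differed at day 0, with 422, 404 and 410.5 CPM in IAA and 179, 192 and 185 CPM in DMSO (log2 fold change 1.15 ± 0.04, edgeR adjusted p = 5e-28). At day 4 it had 1460.3, 1489 and 1452 CPM in IAA and 432, 439 and 415 CPM in DMSO (log2 fold change 1.77 ± 0.04, edgeR adjusted p = 8.1e-38). At day 6 the levels were 1359, 1381 and 1421 CPM in IAA and 664, 654 and 675 CPM in DMSO (log2 fold change 1.06 ± 0.04, edgeR adjusted p = 3.35e-29). All IAA libraries lay above all DMSO libraries on each of the 4 days. Sgce (chr6:4674350-4747207), the paternally expressed epsilon-sarcoglycan gene, starts beside Peg10 and runs in the opposite direction. Its levels at day 2 were 19.2, 21.1 and 21.4 CPM in IAA and 11.8, 12.6 and 13.4 CPM in DMSO (log2 fold change 0.70 ± 0.10, edgeR adjusted p = 3.4e-08). At day 0, where Peg10 was raised, they were 10.4, 11.3 and 10.039 CPM in IAA and 12.003, 13.9 and 12.1 CPM in DMSO (log2 fold change -0.26 ± 0.12, edgeR adjusted p = 0.0725). Asb4 (chr6:5383386-5433022), the maternally expressed substrate receptor of a ubiquitin ligase, had the highest fold of the tested members against DMSO. Its levels were 20.8, 23.4 and 21.5 CPM in IAA and 1.43, 2.41 and 1.70 CPM in DMSO at day 2, 11.9-fold (log2 fold change 3.57 ± 0.15, edgeR adjusted p = 7.72e-26). At day 4 its groups were close, with 8.16, 7.96 and 6.64 CPM in IAA and 6.45, 6.39 and 7.34 CPM in DMSO (log2 fold change 0.18 ± 0.13, edgeR adjusted p = 0.274). DMSO itself had risen 2.19-fold at day 4 against day 0 (log2 fold change 1.13 ± 0.18, edgeR adjusted p = 5.72e-07). At day 6 Asb4 was higher in IAA again (log2 fold change 1.41, edgeR adjusted p = 4.09e-11). Sgce was higher at day 6 too (log2 fold change 0.29, edgeR adjusted p = 0.0016). The rises at days 2 and 6 were thus shared by paternal and maternal members. Of 7 trophoblast markers 4 were tested, and at day 2, 2 were higher and 0 lower; the 7 summed to 28.2 to 32.5 CPM in IAA and 14.8 to 19.9 CPM in DMSO. At day 6 all 4 were higher, with sums of 39.9 to 45.9 CPM in IAA and 18.2 to 19.4 CPM in DMSO. Eomes held the most counts of the 7 (5396 over the 36 libraries), followed by Gata3 (2364). Tpbpa and Prl3d1, which define later trophoblast, had 1 count each in the 36 libraries. The part of trophoblast cells in the Peg10 and Asb4 values was not tested.

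BPK25 moved Peg10 both ways. At day 4 Peg10 had 809, 825 and 845 CPM in BPK25 and 432, 439 and 415 CPM in DMSO, with no overlap (log2 fold change 0.95 ± 0.04, edgeR adjusted p = 1.89e-26). Asb4 had 10.7, 9.73 and 9.71 CPM in BPK25 and 6.45, 6.39 and 7.34 CPM in DMSO (log2 fold change 0.60 ± 0.13, edgeR adjusted p = 7.03e-05). Peg10 was lower at days 0 and 2. It had 162, 154 and 154 CPM in BPK25 and 179, 192 and 185 CPM in DMSO at day 0 (log2 fold change -0.24 ± 0.04, edgeR adjusted p = 0.00013). It had 139.8, 143 and 147 CPM in BPK25 and 176, 169 and 179 CPM in DMSO at day 2 (log2 fold change -0.29 ± 0.04, edgeR adjusted p = 2.36e-06). Sgce passed the test on no day of BPK25. At day 4, 3 of the 4 tested trophoblast markers were higher and 0 lower, and the 7 summed to 23.5 to 25.7 CPM in BPK25 and 15.6 to 18.7 CPM in DMSO; their part in the rise of Peg10 and Asb4 was not tested.

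Mest (chr6:30723547-30748465), a paternally expressed hydrolase-family gene of fetal mesoderm, rose in IAA at days 2, 4 and 6, while its maternally expressed neighbour Copg2 rose on none of these days. At day 2 Mest had 309, 317 and 312 CPM in IAA and 73.5, 66.7 and 67.7 CPM in DMSO, 4.52-fold higher (log2 fold change 2.18 ± 0.05, edgeR adjusted p = 4.54e-37). At day 0 it had been lower, with 48.1, 55.7 and 48.6 CPM in IAA and 64.4, 63.3 and 64.7 CPM in DMSO (log2 fold change -0.33 ± 0.06, edgeR adjusted p = 1.05e-05). On day 4 Mest had 406, 406 and 376 CPM in IAA and 126, 129.6 and 128 CPM in DMSO (log2 fold change 1.63 ± 0.04, edgeR adjusted p = 1.42e-33). The IAA and DMSO groups did not overlap on any of the 4 days. The fold was smaller at day 6, 1.71 (log2 fold change 0.78 ± 0.04, edgeR adjusted p = 1.53e-21), where DMSO had itself risen 3.02-fold against day 0 (log2 fold change 1.59 ± 0.05, edgeR adjusted p = 6.65e-31). Copg2 (chr6:30747554-30896794), which codes for a coat protein of Golgi vesicles, had 53.5, 58.3 and 60.3 CPM in IAA and 59.5, 59.8 and 64.0 CPM in DMSO at day 2 (log2 fold change -0.09 ± 0.07, edgeR adjusted p = 0.259). At day 4 it was lower, with 53.5, 54.7 and 49.8 CPM in IAA and 67.5, 61.1 and 61.5 CPM in DMSO (log2 fold change -0.27 ± 0.07, edgeR adjusted p = 0.000432). The 2 genes run in opposite directions and share 912 exon bases at their ends, 23.1% of the Mest exons and 17.8% of the Copg2 exons, and no source used here says whether counting used the strand.

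Plagl1 (chr10:13060504-13131694), a paternally expressed zinc finger transcription factor that acts on other imprinted genes in the mouse, rose late. It had 25.4, 26.5 and 31.3 CPM in IAA and 24.3, 25.7 and 27.3 CPM in DMSO at day 0 (log2 fold change 0.10 ± 0.10, edgeR adjusted p = 0.474). It had 22.1, 26.4 and 25.6 CPM in IAA and 22.1, 23.6 and 19.9 CPM in DMSO at day 2 (log2 fold change 0.20 ± 0.10, edgeR adjusted p = 0.091). The groups overlapped on both days. By day 4 it had 335, 297 and 317 CPM in IAA and 32.4, 33.4 and 35.1 CPM in DMSO, 9.44-fold higher (log2 fold change 3.24 ± 0.07, edgeR adjusted p = 3.46e-38). At day 6 it had 607, 665 and 625 CPM in IAA and 116, 118 and 113 CPM in DMSO (log2 fold change 2.45 ± 0.06, edgeR adjusted p = 6.46e-37). DMSO rose too, 4.49-fold at day 6 against day 0 (log2 fold change 2.17 ± 0.08, edgeR adjusted p = 2.56e-28), from which IAA stood a further 5.47-fold above. Under BPK25 its only call was at day 6, with 150.2, 158 and 146 CPM in BPK25 against 116, 118 and 113 CPM in DMSO (log2 fold change 0.39 ± 0.06, edgeR adjusted p = 1.05e-05).

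At the Kcnq1 locus on distal chromosome 7, Kcnq1ot1 and Cdkn1c were both raised in IAA at day 6. Kcnq1ot1 (chr7:143203458-143296549) is the paternally expressed antisense RNA known to silence its neighbours on the same chromosome copy. It had 54.1, 60.7 and 51.2 CPM in IAA and 14.8, 18.9 and 14.9 CPM in DMSO at day 6, 3.45-fold (log2 fold change 1.79 ± 0.08, edgeR adjusted p = 2.35e-25). At day 0 it already had 36.9, 38.8 and 33.3 CPM in IAA and 19.6, 18.4 and 16.9 CPM in DMSO (log2 fold change 0.99 ± 0.09, edgeR adjusted p = 6.89e-13). The IAA libraries were above the DMSO libraries on each of the 4 days. Cdkn1c (chr7:143458339-143461050), the maternally expressed inhibitor of cyclin-dependent kinases p57, had 35.1, 39.9 and 37.0 CPM in IAA and 10.8, 11.4 and 12.8 CPM in DMSO at day 6, 3.21-fold (log2 fold change 1.68 ± 0.09, edgeR adjusted p = 1.24e-21). On day 4 Cdkn1c had 14.1, 10.8 and 13.6 CPM in IAA and 6.93, 8.20 and 7.20 CPM in DMSO (log2 fold change 0.78 ± 0.12, edgeR adjusted p = 4.72e-07). At days 4 and 6 the RNA and the gene it is known to silence were both higher. At day 2 they were called in opposite directions, Kcnq1ot1 with 26.7, 28.6 and 28.7 CPM in IAA and 16.1, 16.3 and 13.7 CPM in DMSO (log2 fold change 0.89 ± 0.09, edgeR adjusted p = 2.09e-11). Cdkn1c then had 3.43, 3.45 and 2.66 CPM in IAA and 3.73, 5.09 and 4.73 CPM in DMSO (log2 fold change -0.53 ± 0.20, edgeR adjusted p = 0.021). The Cdkn1c call is lost with no filter and without IAA day 2 replicate 3 or DMSO day 2 replicate 2 or 3 (highest adjusted p 0.0991). At day 0 the RNA alone passed the test, and Cdkn1c had 6.00, 5.24 and 4.8015 CPM in IAA and 6.41, 5.12 and 7.14 CPM in DMSO (log2 fold change -0.19 ± 0.17, edgeR adjusted p = 0.391).

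Under BPK25, Kcnq1ot1 gave the strongest rise among the 29 tested members. On day 4 the RNA had 44.7, 42.8 and 42.6 CPM in BPK25 and 13.2, 13.6 and 12.9 CPM in DMSO, 3.27-fold (log2 fold change 1.71 ± 0.09, edgeR adjusted p = 2.82e-22). At day 2 it had 14.9, 13.7 and 14.4 CPM in BPK25 and 16.1, 16.3 and 13.7 CPM in DMSO, with the groups overlapping (log2 fold change -0.08 ± 0.10, edgeR adjusted p = 0.683). Cdkn1c had 7.34, 7.09 and 7.72 CPM in BPK25 and 3.73, 5.09 and 4.73 CPM in DMSO at day 2 (log2 fold change 0.69 ± 0.16, edgeR adjusted p = 0.00167). It had 11.4, 9.21 and 10.3 CPM in BPK25 and 6.93, 8.20 and 7.20 CPM in DMSO at day 4 (log2 fold change 0.48 ± 0.13, edgeR adjusted p = 0.00168), higher on both. Cdkn1c shares 625 exon bases with the antisense gene Gm44732, which had 20 counts over 36 libraries. The other 4 members of the locus were too low to test. Over the 36 libraries Ascl2, a trophoblast transcription factor, had 121 counts, Phlda2, a brake on placental growth, had 113, the transporter Slc22a18 had 22 and the potassium channel Kcnq1 had 11. Of the 113 Phlda2 counts, 33 came from the 3 BPK25 libraries of day 4, which had 9, 11 and 13, against 1 in each of the 3 DMSO libraries of day 4. Of the 11 Kcnq1 counts, 6 came from the BPK25 libraries of day 4, in which its intronic antisense RNA Kcnq1ot1 was also high, at 0.466 CPM per kilobase of exon. Kcnq1ot1 was high in IAA too, at 0.415 on day 4 and 0.595 on day 6, where Kcnq1 had 0 and 0.00774 CPM per kilobase. Phlda2 and Kcnq1 were singled out after their values were seen and have no test.

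**Figure D3:**
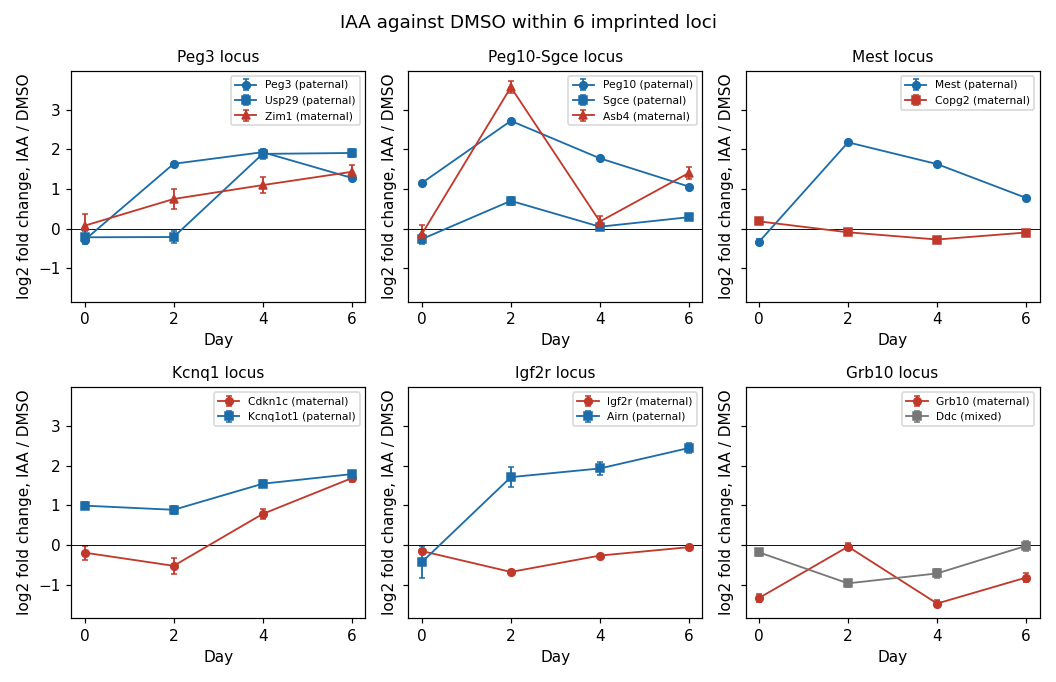
Log2 fold change of IAA over DMSO (y axis, ± SE) by day (x axis) for members of 6 loci, with paternally expressed genes in blue, maternally expressed genes in red and Ddc in grey. Peg3 rises at day 2 and Usp29 at day 4, Airn rises while Igf2r lies at or below 0, and Kcnq1ot1 and Cdkn1c are both high at day 6.

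At the Igf2r locus on chromosome 17 the antisense RNA was higher and the receptor lower in IAA at days 2 and 4, while at day 6 the RNA alone and at day 0 the receptor alone passed the test. Airn (chr17:12741311-12860136) is the paternally expressed RNA known to silence Igf2r on the paternal copy as stem cells differentiate. At day 2 it had 4.45, 5.82 and 3.89 CPM in IAA and 1.58, 0.803 and 1.80 CPM in DMSO (log2 fold change 1.71 ± 0.26, edgeR adjusted p = 1.91e-07). It had 14.9, 14.3 and 13.1 CPM in IAA and 4.81, 2.67 and 3.53 CPM in DMSO at day 4 (log2 fold change 1.93 ± 0.16, edgeR adjusted p = 7.27e-15). At day 6 it had 27.5, 24.5 and 24.2 CPM in IAA and 3.94, 4.16 and 6.26 CPM in DMSO, 5.44-fold (log2 fold change 2.44 ± 0.13, edgeR adjusted p = 5.53e-22). All IAA libraries were above all DMSO libraries from day 2 on, though Airn passed the low-count filter in 8 of 12 groups only. Igf2r (chr17:12682406-12769664), the maternally expressed receptor that clears IGF2, had 159.9, 145 and 156 CPM in IAA and 242, 242 and 254 CPM in DMSO at day 2 (log2 fold change -0.68 ± 0.04, edgeR adjusted p = 5.07e-19). At day 0, where Airn was not called (log2 fold change -0.43 ± 0.40, edgeR adjusted p = 0.405), Igf2r had 222, 212 and 234 CPM in IAA and 239.8, 253 and 249 CPM in DMSO (log2 fold change -0.15 ± 0.04, edgeR adjusted p = 0.00255), a call lost with no filter (adjusted p 0.0653). At day 4 it had 178, 186 and 188 CPM in IAA and 222, 219 and 224 CPM in DMSO (log2 fold change -0.27 ± 0.04, edgeR adjusted p = 3.64e-07). At day 6, when Airn was highest, Igf2r had 237, 247 and 243 CPM in IAA and 251, 246 and 258 CPM in DMSO (log2 fold change -0.06 ± 0.04, edgeR adjusted p = 0.232). In BPK25 at day 4 both genes were higher: Airn had 7.04, 7.4985 and 7.12 CPM in BPK25 and 4.81, 2.67 and 3.53 CPM in DMSO (log2 fold change 0.96 ± 0.18, edgeR adjusted p = 1.59e-05). Igf2r had 268, 287 and 267 CPM in BPK25 and 222, 219 and 224 CPM in DMSO (log2 fold change 0.30 ± 0.04, edgeR adjusted p = 1.62e-08). In DMSO, Airn rose 3.43-fold at day 6 against day 0 (log2 fold change 1.78 ± 0.27, edgeR adjusted p = 1.11e-07), and Igf2r at day 6 had a log2 fold change of 0.03 ± 0.04. At day 4 against day 0 in DMSO, Airn was higher (log2 fold change 1.43, edgeR adjusted p = 5.65e-05). Igf2r was lower in that comparison (log2 fold change -0.16, edgeR adjusted p = 0.00139).

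Grb10 (chr11:11930508-12038683), a maternally expressed adaptor that damps insulin receptor signalling, was lower in IAA and higher in BPK25. At day 0 it had 16.0, 15.5 and 15.9 CPM in IAA and 42.0, 38.7 and 39.0 CPM in DMSO (log2 fold change -1.34 ± 0.10, edgeR adjusted p = 7.96e-16). The day 4 levels were 10.7, 10.6 and 14.3 CPM in IAA and 33.5, 32.7 and 33.9 CPM in DMSO (log2 fold change -1.48 ± 0.10, edgeR adjusted p = 5.19e-18). Day 2 between them showed no such gap, with 40.3, 38.0 and 37.2 CPM in IAA and 43.6, 32.7 and 42.0 CPM in DMSO (log2 fold change -0.04 ± 0.08, edgeR adjusted p = 0.678). At day 6 it had 9.41, 11.2 and 9.95 CPM in IAA and 17.2, 17.4 and 19.4 CPM in DMSO (log2 fold change -0.82 ± 0.12, edgeR adjusted p = 2.86e-08). BPK25 had 57.0, 59.5 and 59.0 CPM at day 2, all above the 43.6, 32.7 and 42.0 CPM of DMSO (log2 fold change 0.56 ± 0.07, edgeR adjusted p = 3.05e-07). It was also higher at days 0 and 6, 1.30-fold and 1.42-fold, and 1.15-fold at day 4, a call lost without BPK25 day 4 replicate 2 or 3 or DMSO day 4 replicate 1 or 2 (highest adjusted p 0.156). Ddc (chr11:11814101-11898144), its neighbour and the enzyme that makes dopamine and serotonin, had 13.6, 19.1 and 18.1 CPM in IAA and 33.3, 32.5 and 34.8 CPM in DMSO at day 2 (log2 fold change -0.97 ± 0.09, edgeR adjusted p = 1.06e-12), where the Grb10 groups overlapped. At day 4 of IAA Ddc was lower (log2 fold change -0.72, edgeR adjusted p = 2.7e-07), as Grb10 was. At days 0 and 6 of IAA, where Grb10 was lower, Ddc was not called. Ddc had 9.03, 8.68 and 8.51 CPM in BPK25 and 19.048, 15.4 and 18.1 CPM in DMSO at day 4 (log2 fold change -0.99 ± 0.12, edgeR adjusted p = 5.36e-10), again lower in every library. Both fell in DMSO over time. Ddc had 11.5, 9.81 and 10.951 CPM at day 6 against 40.1, 39.0 and 38.8 CPM at day 0 (log2 fold change -1.85 ± 0.10, edgeR adjusted p = 2.36e-22). Grb10 had 17.2, 17.4 and 19.4 CPM at day 6 against 42.0, 38.7 and 39.0 CPM at day 0 (log2 fold change -1.16 ± 0.09, edgeR adjusted p = 9.21e-16).

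Nnat, Nap1l5, Zrsr1 and Peg13 are paternally expressed and lie inside the genes Blcap, Herc3, Commd1 and Trappc9. Nnat (chr2:157560078-157562522), a small membrane proteolipid of neural and endocrine cells, changed direction between days. In IAA at day 6 it had 12.5, 14.9 and 13.7 CPM against 58.8, 51.4 and 57.0 CPM in DMSO (log2 fold change -2.04 ± 0.09, edgeR adjusted p = 3.15e-25). Day 0 had 4.58, 5.68 and 6.40 CPM in IAA against 11.6, 12.6 and 11.5 CPM in DMSO (log2 fold change -1.12 ± 0.16, edgeR adjusted p = 7.5e-08). At day 2 it was the other way, with 21.0, 22.0 and 18.3 CPM in IAA and 12.8, 12.3 and 11.9 CPM in DMSO (log2 fold change 0.73 ± 0.11, edgeR adjusted p = 2.47e-07). BPK25 at day 4 had 12.7, 12.5 and 10.3 CPM against 49.7, 43.9 and 46.9 CPM in DMSO (log2 fold change -1.99 ± 0.09, edgeR adjusted p = 1.42e-23), the lowest fold of the tested members under that compound. At day 6 the groups overlapped, with 56.1, 62.1 and 55.2 CPM against 58.8, 51.4 and 57.0 CPM in DMSO (log2 fold change 0.04 ± 0.07, edgeR adjusted p = 0.811). In DMSO the rise came between days 2 and 4, and day 4 was 3.93-fold above day 0 (log2 fold change 1.97 ± 0.10, edgeR adjusted p = 6.26e-22). The host Blcap had log2 fold changes of 0.03 ± 0.09 for IAA at day 6 and -0.05 ± 0.10 for BPK25 at day 4. Over the same groups the 6 neural markers summed to 75.2 to 78.0 CPM in IAA and 112 to 114 CPM in DMSO at day 6. They summed to 63.1 to 67.6 CPM in BPK25 and 107 to 119 CPM in DMSO at day 4; on those days the sum was lower where Nnat was lower. At day 4 of IAA, where Nnat was lower (log2 fold change -0.88), they summed to 75.0 to 78.9 CPM in IAA and 107 to 119 CPM in DMSO. At days 2 and 0 of IAA the sum and Nnat differed in opposite directions. Neural markers summed to 82.5 to 87.9 CPM in IAA and 138 to 146 CPM in DMSO at day 2, where Nnat was higher. At day 0 they summed to 179 to 185 CPM in IAA and 144 to 152 CPM in DMSO, where Nnat was lower. Stmn2 held the most counts of the 6 (18329 over the 36 libraries). By calls in IAA, 2 neural markers were higher and 2 lower at day 2, and 3 and 1 at day 0. There were 1 higher and 3 lower at day 4, and 0 and 4 at day 6. In BPK25 at day 4, 1 was higher and 5 lower. The part of neural cells in the Nnat values was not tested.

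Nap1l5 (chr6:58905233-58907076), a nucleosome assembly protein relative, moved in IAA in the same direction as its host Herc3 on all 4 days. At day 4 it had 10.034, 10.5 and 9.16 CPM in IAA and 25.8, 27.6 and 24.7 CPM in DMSO (log2 fold change -1.41 ± 0.11, edgeR adjusted p = 3.49e-15). Day 6 had 6.56, 7.11 and 7.04 CPM in IAA and 13.3, 15.9 and 15.8 CPM in DMSO (log2 fold change -1.11 ± 0.14, edgeR adjusted p = 1.37e-09), again with all IAA libraries lower. At day 2 it was higher (log2 fold change 0.50 ± 0.11, edgeR adjusted p = 0.000159) and at day 0 lower (log2 fold change -0.82 ± 0.14, edgeR adjusted p = 4.57e-06). Herc3 had log2 fold changes of -0.33 at day 0, 0.50 at day 2, -0.61 at day 4 and -0.62 at day 6, all called. In BPK25 at day 4 Nap1l5 had 16.1, 14.9 and 16.9 CPM against 25.8, 27.6 and 24.7 CPM in DMSO (log2 fold change -0.70 ± 0.10, edgeR adjusted p = 1.51e-07). Peg13 (chr15:72805600-72810324), a noncoding RNA, had 2.15, 3.68 and 3.42 CPM in BPK25 and 5.48, 5.53 and 4.99 CPM in DMSO at day 4 (log2 fold change -0.84 ± 0.20, edgeR adjusted p = 0.000501). It had 3.90, 5.04 and 5.83 CPM in IAA and 7.65, 10.2 and 7.55 CPM in DMSO at day 6 (log2 fold change -0.78 ± 0.16, edgeR adjusted p = 5.75e-05). Its host Trappc9 was higher in BPK25 at day 4, with a log2 fold change of 0.34. In IAA at day 6, 0 of the 4 host genes were higher and 2 lower (30.6% and 30.0% of all genes). Zrsr1 (chr11:22972005-22976496), a splicing factor relative, stayed between 83.0 and 117 CPM over all 36 libraries and shares 412 exon bases with Commd1.

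The Snrpn locus, the mouse counterpart of the Prader-Willi region, held 6 members that did not move together. Snrpn (chr7:59982495-60140219), a spliceosomal protein gene, had 93.1, 96.8 and 97.1 CPM in IAA and 79.7, 68.5 and 67.4 CPM in DMSO at day 2 (log2 fold change 0.42 ± 0.05, edgeR adjusted p = 1.91e-09), so all IAA libraries were higher. It had 90.9, 91.4 and 91.5 CPM in BPK25 and 69.2, 67.8 and 69.3 CPM in DMSO at day 4 (log2 fold change 0.41 ± 0.05, edgeR adjusted p = 4.23e-09). Snurf (chr7:59995449-60005049) lies inside it, and all 216 annotated Snurf exon bases also belong to Snrpn and Gm38393, so its reads cannot be told from theirs. It had 47.0, 53.7 and 50.7 CPM in IAA and 42.4, 37.2 and 37.3 CPM in DMSO at day 2 (log2 fold change 0.38 ± 0.07, edgeR adjusted p = 7.58e-06). At day 4 Snurf had 50.9, 47.5 and 45.3 CPM in BPK25 and 34.2, 35.3 and 41.1 CPM in DMSO (log2 fold change 0.40 ± 0.07, edgeR adjusted p = 4.49e-06). Ndn (chr7:62346569-62350262), the MAGE-family gene necdin, had 18.6, 19.8 and 19.5 CPM in IAA and 12.9, 10.3 and 13.1 CPM in DMSO at day 2 (log2 fold change 0.66 ± 0.10, edgeR adjusted p = 1.16e-07). It had 20.4, 21.4 and 19.3 CPM in IAA and 26.3, 26.4 and 24.8 CPM in DMSO at day 6 (log2 fold change -0.35 ± 0.08, edgeR adjusted p = 0.0002), so its direction turned. Magel2 (chr7:62377010-62381640), another MAGE-family gene, turned in the same way. It had 1.27, 1.97 and 1.33 CPM in IAA and 0.430, 0.669 and 0.662 CPM in DMSO at day 2 (log2 fold change 1.34 ± 0.40, edgeR adjusted p = 0.00384). It had 0.285, 0.517 and 0.850 CPM in IAA and 1.86, 1.29 and 1.10 CPM in DMSO at day 6 (log2 fold change -1.46 ± 0.39, edgeR adjusted p = 0.00118). Magel2 passed the low-count filter in 6 of 12 groups, and these levels are near the limit of what the depth can resolve.

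Peg12 (chr7:62461871-62464510), a relative of the Wnt pathway FRAT proteins, was lower in IAA at day 2, where the other 5 genes of the locus were higher. At day 2 it had 2.03, 1.48 and 1.52 CPM in IAA and 6.02, 3.75 and 3.78 CPM in DMSO (log2 fold change -1.41 ± 0.24, edgeR adjusted p = 1.62e-06). The day 6 levels were 0.761, 1.55 and 1.82 CPM in IAA and 3.19, 3.07 and 3.68 CPM in DMSO (log2 fold change -1.31 ± 0.25, edgeR adjusted p = 1.66e-05). In BPK25 at day 4 it had 0.746, 1.18 and 0.925 CPM against 3.17, 3.05 and 2.20 CPM in DMSO (log2 fold change -1.63 ± 0.29, edgeR adjusted p = 4.58e-06), again with no overlap. Mkrn3 (chr7:62417593-62420139), a ubiquitin ligase gene known as a brake on puberty in humans, had 4.72, 3.29 and 4.35 CPM in BPK25 and 7.12, 6.67 and 5.58 CPM in DMSO at day 4 (log2 fold change -0.63 ± 0.17, edgeR adjusted p = 0.00177). At day 2 of IAA Mkrn3 was higher, with 8.01, 8.39 and 7.88 CPM in IAA and 5.16, 5.76 and 5.20 CPM in DMSO (log2 fold change 0.59 ± 0.16, edgeR adjusted p = 0.00176). These are different days. On the matched days it was not called, with a mean 0.88 times that of DMSO in IAA at day 4 and 1.09 times in BPK25 at day 2. Within the locus, then, at day 4 of BPK25 Snrpn and Snurf were higher and Mkrn3 and Peg12 lower, and at day 6 of IAA Snrpn and Snurf were higher and Ndn, Magel2 and Peg12 lower.

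The remaining members described are single genes of their loci. Impact, a paternally expressed brake on the GCN2 stress kinase, had 100.1, 101 and 96.6 CPM in IAA and 163, 153 and 172 CPM in DMSO at day 6 (log2 fold change -0.71 ± 0.05, edgeR adjusted p = 2.62e-17). It was also lower at day 0 (log2 fold change -0.49 ± 0.05, edgeR adjusted p = 7.97e-11) and day 2 (log2 fold change -0.29 ± 0.05, edgeR adjusted p = 3.7e-06). Zdbf2 (chr1:63273265-63314576), a paternally expressed zinc finger gene that in the mouse affects growth through the hypothalamus, had 69.4, 71.8 and 72.0 CPM in IAA and 102, 103 and 101 CPM in DMSO at day 6 (log2 fold change -0.52 ± 0.05, edgeR adjusted p = 4.45e-13). It fell in DMSO at day 6 against day 0 (log2 fold change -0.55 ± 0.05, edgeR adjusted p = 8.51e-15). Gnas (chr2:174284320-174346744), the stimulatory G protein alpha subunit, had 316, 321 and 335 CPM in IAA and 193, 208 and 218 CPM in DMSO at day 2 (log2 fold change 0.65 ± 0.04, edgeR adjusted p = 2.32e-19). It stayed higher at days 4 and 6, 1.33-fold and 1.43-fold, after being lower at day 0 (log2 fold change -0.18 ± 0.04, edgeR adjusted p = 0.000258). Gene counts do not separate its differently imprinted transcripts. H13 (chr2:152669461-152708670), a signal peptide peptidase, had 47.9, 51.0 and 51.5 CPM in IAA and 27.5, 26.1 and 28.4 CPM in DMSO at day 2 (log2 fold change 0.87 ± 0.07, edgeR adjusted p = 2.2e-16), with every IAA library above DMSO. Its groups overlapped at day 6 (log2 fold change -0.07 ± 0.06, edgeR adjusted p = 0.283).

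Set side by side, the parental classes did not separate cleanly in any comparison. The 20 paternal genes had a median log2 fold change of 0.55 in IAA at day 2, with 14 higher and 3 lower, against -0.07 for the 6 tested maternal genes, with 2 higher and 2 lower, and -0.01 for all genes. At IAA day 6 the medians were 0.23 (10 higher, 8 lower) for paternal and 0.68 (3 higher, 1 lower) for maternal genes. In DMSO at day 6 against day 0 they were 0.39 (11 higher, 2 lower) for paternal and -0.01 (2 higher, 1 lower) for maternal genes. In BPK25 at day 4 they were 0.13 (8 higher, 5 lower) for paternal genes and 0.26 (4 higher, 0 lower) for maternal genes. Of all genes tested, 27.5% were higher and 27.9% lower in IAA at day 2, and 30.6% and 30.0% in IAA at day 6. The shares were 33.2% and 29.5% in DMSO at day 6 against day 0, and 26.2% and 26.8% in BPK25 at day 4. Some class shares lie near these, such as 33.3% higher and 33.3% lower of the maternal genes in IAA at day 2. Individual genes spread far more than these medians, between -2.04 (Nnat) and 2.45 (Plagl1) among paternal genes and -0.82 (Grb10) and 1.68 (Cdkn1c) among maternal genes in IAA at day 6. The classes hold few genes, several share a locus and 4 maternal genes were not tested, so these are descriptions.

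**Figure D4:**
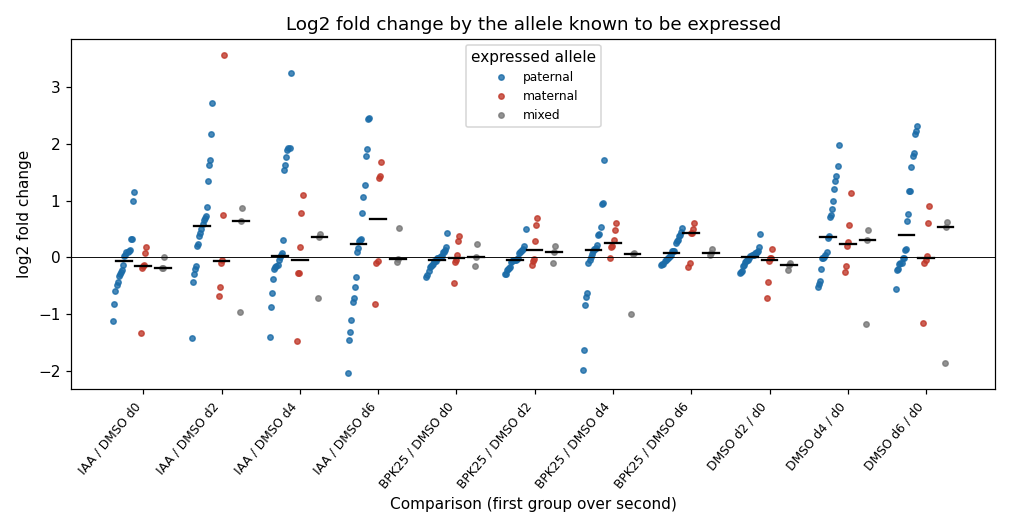
Log2 fold change (y axis) of each tested member as a point, split into paternally expressed, maternally expressed and isoform- or tissue-dependent (mixed) genes, in each of 11 comparisons (x axis); black bars are medians. The paternal median is 0.55 and the maternal median -0.07 in IAA at day 2, and points of the classes overlap in every comparison.

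BPK25 and IAA were compared directly at day 4, the day with most BPK25 calls. Relative to IAA, BPK25 had 11 members higher and 15 lower (27.2% and 27.1% of all genes), of which 1 higher and 6 lower were at least 2-fold (5.96% and 5.92%). The lower ones were led by Plagl1, with 41.2, 34.3 and 34.6 CPM in BPK25 and 335, 297 and 317 CPM in IAA (log2 fold change -3.10 ± 0.07, edgeR adjusted p = 6.41e-38). Usp29 had 4.89, 5.53 and 6.38 CPM in BPK25 and 22.2, 20.7 and 20.9 CPM in IAA (log2 fold change -1.93 ± 0.12, edgeR adjusted p = 5.81e-19). Peg3 had 727, 714 and 690.1 CPM in BPK25 and 2731, 2488 and 2532 CPM in IAA (log2 fold change -1.86 ± 0.04, edgeR adjusted p = 9.03e-38). In all 3 every BPK25 library lay far below every IAA library. Mest (log2 fold change -1.40 ± 0.04, edgeR adjusted p = 2.23e-31) and Nnat (log2 fold change -1.11 ± 0.10, edgeR adjusted p = 2.62e-13) were lower too. Peg12 was lower as well (log2 fold change -1.02 ± 0.31, edgeR adjusted p = 0.00437) but loses its call without IAA day 4 replicate 3 (adjusted p 0.062). Grb10 was the 1 member at least 2-fold higher, with 34.6, 42.1 and 39.7 CPM in BPK25 and 10.7, 10.6 and 14.3 CPM in IAA (log2 fold change 1.68 ± 0.09, edgeR adjusted p = 9.1e-21). Both conditions are also set against the same DMSO libraries elsewhere in the text, so their separate folds are not independent of each other.

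Factors that keep imprints and other genes of the same regions were read from lists written beside that of the members. Of 8 imprint maintenance genes, 7 were lower in IAA at day 2 and 0 higher, and in DMSO 7 were lower at day 6 than at day 0, where 27.9% and 29.5% of all genes were lower. In IAA, 2 were higher and 5 lower at day 0 (21.3% and 23.2% of all genes). The counts were 1 higher and 3 lower at day 4 (25.9% and 25.9%), and 2 higher and 5 lower at day 6 (30.6% and 30.0%). In BPK25 at day 4, 2 were higher and 5 lower (26.2% and 26.8%). Zfp57, the methylation guardian described above, had 101, 109 and 104 CPM in IAA and 167, 173 and 169 CPM in DMSO at day 2 (log2 fold change -0.70 ± 0.05, edgeR adjusted p = 5.42e-18). In DMSO it had 52.4, 50.2 and 55.8 CPM at day 6 against 209.5, 228 and 212 CPM at day 0 (log2 fold change -2.04 ± 0.05, edgeR adjusted p = 4.84e-36). Dppa3, which shields maternal imprints in the early embryo, had 3.56, 3.36 and 3.61 CPM in IAA and 16.8, 18.9 and 16.2 CPM in DMSO at day 2 (log2 fold change -2.29 ± 0.14, edgeR adjusted p = 5.38e-19). At day 6 it was the other way, with 17.0, 15.0 and 15.9 CPM in IAA and 5.91, 5.05 and 5.06 CPM in DMSO (log2 fold change 1.56 ± 0.12, edgeR adjusted p = 1.31e-15). Uhrf1, which brings the maintenance methyltransferase to replicating DNA, was lower in IAA on all 4 days and in BPK25 at day 4 (log2 fold change -0.79 ± 0.04, edgeR adjusted p = 5.54e-23). Among 16 other genes of these regions 11 were tested, and in IAA at day 6, 2 were higher and 7 lower (30.6% and 30.0% of all genes). Atp10a, a phospholipid transporter near Ube3a, was lowest at a log2 fold change of -1.61 ± 0.23 (edgeR adjusted p = 5.11e-08).

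Per kilobase of exon, the order of the members changed with time. In DMSO at day 0 the highest levels, leaving out Snurf, were Snrpn at 32.0, Impact at 28.8 and Peg10 at 27.8 CPM per kilobase. In DMSO at day 6 they were Peg10 at 99.6, Peg3 at 99.0 and Mest at 49.1 CPM per kilobase. In IAA at day 6 they were Peg3 at 241, Peg10 at 208 and Mest at 84.0 CPM per kilobase, with Plagl1 next at 80.8. Snurf is left out because its 216 annotated exon bases are all shared. Snrpn shares 34.1% of its exon bases with other genes and Mest 23.1%, so their places in the order are uncertain too.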

How the data were processed

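RNA-seq of 36 mouse embryonic stem cell libraries gave 1 table of raw counts per gene, deposited by the authors. The submitters' processing notes name HISAT2 2.1.0, featureCounts 2.0.1, DESeq2 and FastQC 0.11.7, and the build mm10. Annotation release, read filters and strandedness were not given in the sources used here. Libraries were grouped by the treatment, day and replicate in their labels. The counts were scaled by TMM and tested in edgeR 4.0.16 (limma 3.58.1, R 4.3.3) with a quasi-likelihood model over all 12 groups, after a filter on low counts (minimum count 10, minimum total 15), which kept 17394 of 55335 genes. P-values are two-sided and adjusted by Benjamini-Hochberg over those genes, and a joint test over the 4 days asked whether an effect differed between days. The biological coefficient of variation was 3.86%, and replicates differed by 1.35 to 2.85 times sampling noise (chi-square per degree of freedom). The scripts were tested on simulated data. Gene coordinates are from GENCODE M21 (GRCm38) and promoters from RefSeq. The members, the marker lists and the other lists were chosen with earlier results of these data known. Values of each library were printed for members that passed the test, reached 5 CPM and at least 2-fold, and did not overlap (at most 5 in each direction per comparison), and for members of loci that hold several; the values of the other members given above were added after they were seen. Alternatives were RLE scaling, no filter, a filter of 1 CPM in 3 libraries, a replicate block, DESeq2 1.42.0, a fit to the libraries compared alone, and leaving out each library. Same-numbered libraries did not deviate together (correlations -0.0442 to 0.0497), so the numbers were not taken as pairs.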

Additional observations from a re-analysis of the deposited data

Results flagged for a closer look

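By edgeR's joint quasi-likelihood test with Benjamini-Hochberg adjustment, the effect of IAA differed between days for 28 of the 29 tested members (70.1% of all genes). That of BPK25 differed for 19 (47.1% of all genes). Members called in opposite directions on different days are listed here by the adjusted p of the difference between days. Under IAA they were Peg3 (3.95e-33), Mest (5.74e-31), Nnat (1.62e-20), Gnas (4.75e-17), Cdkn1c (4.76e-14), Nap1l5 (4.43e-14), Ndn (5.22e-09), Magel2 (0.000273), Zrsr1 (0.000332) and Copg2 (0.000672). Peg3, Mest and Gnas were lower at day 0 and higher from day 2, Ndn and Magel2 were higher at day 2 and lower at day 6, and Nnat and Nap1l5 were lower at days 0, 4 and 6 and higher at day 2. Under BPK25 they were Peg10 (6.81e-25), Nnat (7.33e-21), Kcnq1ot1 (5.24e-18), Igf2r (1.01e-08), Zdbf2 (6.37e-06) and Mest (1.87e-05). Peg10, Mest, Igf2r, Kcnq1ot1 and Zdbf2 were lower at day 0 or 2 and higher at day 4, and Nnat was higher at day 2 and lower at day 4. Several of the smaller calls behind these lists (Copg2, Cdkn1c and Zrsr1 under IAA; Mest, Igf2r, Kcnq1ot1 and Zdbf2 under BPK25) are lost on at least 1 of their days in at least 1 other fit.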

How the results depend on the processing

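Of 185 calls of a member in a comparison, 155 were kept in every fit and 30 were lost in 1 or more, while 0 changed direction; of the 60 calls of at least 2-fold, 58 were kept. RLE scaling and the stricter filter lost 0 of the 185, a replicate block 2, DESeq2 6, a fit to the libraries compared alone 6 and no filter 14. With no filter, 1 member was lower in BPK25 at day 0, 2 in BPK25 at day 2 and 1 in DMSO at day 2 against day 0. That last count was also 1 with a replicate block and 1 in the fit to the libraries compared. Leaving out 1 library gave 1 to 2 members lower in BPK25 at day 0, 2 to 5 lower in BPK25 at day 2, 3 to 6 higher in BPK25 at day 6 and 1 lower in DMSO at day 2 against day 0; every other count stayed within 1.5 times. The numbers pair no libraries, so the block is an alternative only. Depth limits Magel2, Peg12, Airn and the 4 untested genes most. The cause was not tested.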
